A study of Rattus norvegicus with 65 samples.

Results

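Gfap, Aqp4, Slc1a2, Slc1a3, Aldh1l1, Gja1, Glul and S100b are genes by which astrocytes are commonly recognized. They were chosen by name, as astrocyte markers, and each symbol matched 1 row, so that 8 of the 38513 genes of the count table were followed. Astrocytes are glial cells that wrap synapses and blood vessels. They take up glutamate and potassium released by neurons, turn glutamate into glutamine, move water at the vessel wall, and pass ions and metabolites to each other through gap junctions. In the hypothalamus they lie next to the neurons that control feeding, and their receptors let them respond to hormones and nutrients that arrive with the blood.

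The RNA came from the hypothalamus of 65 male Wistar rats, 1 library per animal. By the methods of the study, the animals of the operated and treated groups were 9 to 10 weeks old at the start and received a high-fat diet for 6 weeks. The 14 RYGB animals then had a Roux-en-Y gastric bypass and the 11 sham animals a sham operation. The 7 BWM animals were given restricted food that was meant to bring them to the weight of the bypassed animals. The abstract of the study lists this group as sham with weight matching. Liraglutide, a long-acting agonist of the GLP-1 receptor, was injected at 0.4 mg/kg/day in 5 animals, which also carried a minipump with saline. The gut hormone fragment PYY3-36 was infused by minipump at 0.1 mg/kg/day in 4 animals, which were also injected with saline. In 10 animals both agents were given, and 8 animals received saline by both routes. For the 6 animals labelled lean, the labels state neither a diet nor a treatment. Except for BWM, whose food was restricted, the operated and treated animals could choose between a high-fat and a low-fat diet. Tissue was collected at 4 weeks from the intervention, from animals that had fasted for 10 h. The experiments ran in 2 periods, batch A with 37 libraries and batch B with 28. All BWM and lean animals were in batch A, and all PYY3-36 and liraglutide animals were in batch B. Batch A held 11 RYGB, 5 sham, 3 saline and 5 combination animals, and batch B held 3, 6, 5 and 5. The authors had dropped a further PYY3-36 rat whose RNA was not extracted correctly. Counts per library ran from 20040821 to 36539714, with medians of 29571483 (batch A) and 23385849 (batch B).

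Before the astrocyte genes are described, the label of the tissue was compared with markers of the hypothalamus. A list of 10 genes, among them those of the neuropeptides vasopressin, oxytocin, orexin, melanin-concentrating hormone and agouti-related peptide, was summed as counts scaled to the size of the library (CPM). The sum had a median of 1719 CPM and ran from 12.02 to 8198 CPM, and the most abundant gene was Pmch, with 1.42 to 6173 CPM. In 12 of the 65 libraries the sum was under 171.9 CPM, a share of 0.1 of the median. These libraries reached at most 166.9 CPM, and the next library had 439.6 CPM. They fell unevenly on the groups: 3 of 11 sham, 2 of 8 saline, 2 of 6 lean, 2 of 5 liraglutide, 1 of 7 BWM, 1 of 4 PYY3-36, 1 of 10 combination and 0 of 14 RYGB libraries, of which the lowest had 704.5 CPM. Markers of other brain regions were high in some of them. The summed level of 5 striatum genes reached 4840 CPM in sham replicate 10 and 4588 CPM in BWM replicate 1, against a median over all libraries of 493 CPM. That of 4 cortex genes reached 1791 CPM in sham replicate 2, against a median of 29.5 CPM. In these 12 libraries the median level of Gfap was 224 against 301 in the others, in the unit explained with the levels, that of Aqp4 was 117 against 154, and that of Slc1a2 was 28.5 against 21.5. The ranges of the 12 and of the 53 others overlapped for each of the 8 genes. Because the labelled tissue is in doubt for these libraries, the tests of the 8 genes, and the calls in the other astrocyte lists, are given with and without them, a choice made after seeing the data.

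**Figure D1:**
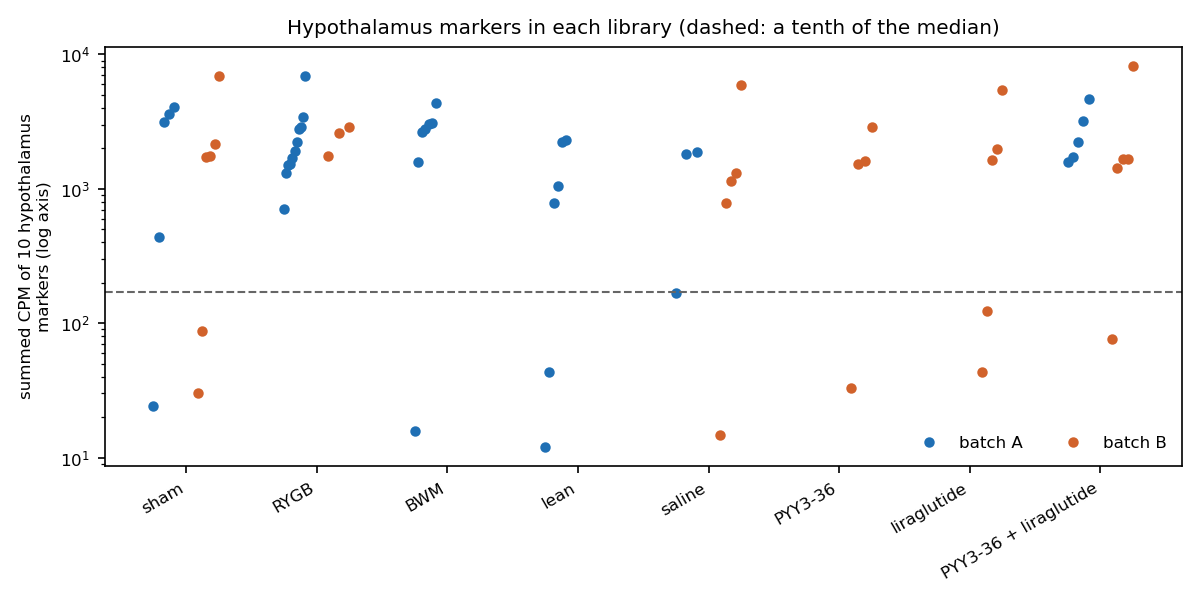
Summed CPM of 10 hypothalamus markers in each of the 65 libraries (log axis), by group, with batch A in blue and batch B in orange, and a dashed line at 171.9 CPM. Below the line are 12 libraries, of which 3 are sham and 0 are RYGB.

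Levels were compared between genes as CPM per kilobase of exon (RPKM). All 8 genes passed the filter on low counts, and the lowest count of any of them in any library was 341, for Slc1a2. S100b, which encodes a small calcium-binding protein of astrocytes and some oligodendrocytes (chr20:13130633-13142856 of Rnor_6.0, minus strand), was the most abundant, with a mean of 1249 RPKM. It exceeded the next gene in 65 of 65 libraries and made up 48.4% of the summed level of the 8 genes. Glul followed with 523 RPKM. It encodes glutamine synthetase, the enzyme by which astrocytes turn glutamate and ammonia into glutamine (chr13:71331052-71340207, plus strand). Gfap, the intermediate filament protein of the astrocyte cytoskeleton (chr10:90990762-90999435, minus strand), had a mean of 312 RPKM. It lay under Glul in most libraries, since Glul was higher in 55 of 65.

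In the middle of the order were 3 membrane proteins whose ranges overlapped widely. Slc1a3, the glutamate transporter also called GLAST (chr2:57860881-57935363, minus strand), had a mean of 166 RPKM and exceeded Aqp4 in 46 of 65 libraries. Aqp4, the water channel of the endfeet that astrocytes set on blood vessels (chr18:6766009-6782757, minus strand), had 148 RPKM and exceeded Gja1 in 42 of 65. Gja1 encodes connexin 43, the main gap junction protein of astrocytes (chr20:37876650-37889097, plus strand), and had 129.9 RPKM. The lowest were Slc1a2, the glutamate transporter also called GLT-1 (chr3:92518679-92665731, plus strand), with 24.9 RPKM, and Aldh1l1, an enzyme of folate metabolism (chr4:123516553-123564067, minus strand), with 14.2 RPKM. Slc1a2 exceeded Aldh1l1 in 50 of 65 libraries. The annotation behind the counts gave Slc1a2 only 1685 bases of exon, and what part of its transcripts these bases hold was not tested.

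Across the 12 sets of animals given by group and batch, the highest mean exceeded the lowest 2.68 times for Gfap, from 187 RPKM in the combination group of batch B to 502 RPKM in the PYY3-36 group. For Slc1a2 the ratio was 2.14, from 16.5 RPKM in sham of batch B to 35.2 RPKM in lean. It was 1.95 for Aqp4, 1.81 for Aldh1l1, 1.71 for Slc1a3, 1.58 for S100b, 1.43 for Gja1 and 1.21 for Glul. In RNA of whole tissue, fewer astrocytes and less RNA of a gene per astrocyte cannot be told apart.

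**Figure D2:**
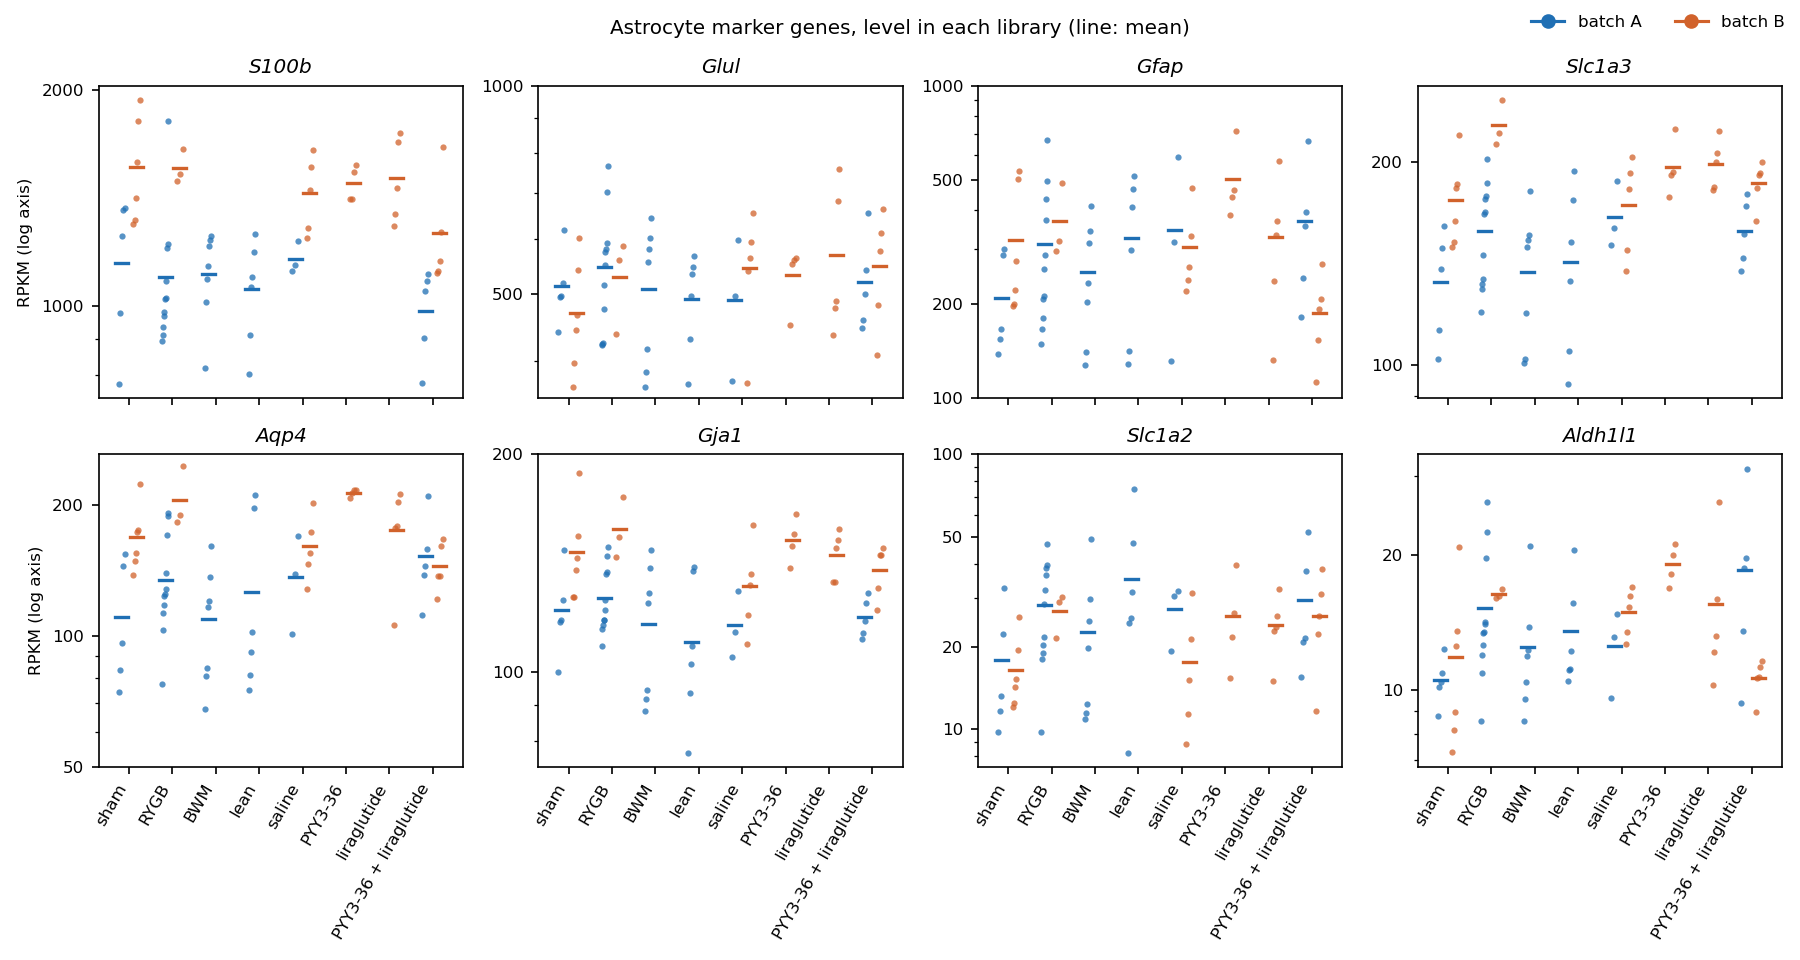
Level of each of the 8 genes in every library, in RPKM on a log axis that differs between panels, by group, with batch A in blue, batch B in orange and a line at the mean. The means of S100b, Slc1a3, Gja1, Aqp4 and Aldh1l1 lie higher in batch B than in batch A in at least 3 of the 4 groups present in both, while Gfap and Slc1a2 scatter widely within groups.

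Animals of the same group differed much more in some of these genes than in others. Within groups, the SD of the log2 level was 0.67 for Gfap and 0.67 for Slc1a2, the astrocyte filament and the transporter that carries most glutamate uptake in the adult forebrain. Among the genes within 2-fold of the same CPM, 94.5% varied less than Gfap and 95.9% varied less than Slc1a2. Over all libraries, Gfap ran from 112 to 718 RPKM and Slc1a2 from 8.18 to 74.5 RPKM, a span of 6.38-fold and 9.10-fold. Aldh1l1 had an SD of 0.40 and Aqp4 of 0.39. Glul (0.28), Slc1a3 (0.25), S100b (0.24) and Gja1 (0.20) varied about as much as other genes of their level, of which between 29.8% and 59.5% varied less. By the SD within groups Gja1 was the steadiest of the 8 genes, and by the ratio of the highest to the lowest library it was Glul (2.09, against 2.44 for Gja1).

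The genes did not vary as a block. After the mean of each group in each batch was removed, 15 of the 28 pairs of genes were correlated over the 65 libraries at an adjusted permutation p under 0.05, 14 of them positively and 1 negatively. Each of the 15 kept its sign in both batches, without the 2 libraries farthest from the median, without the 12 libraries low in hypothalamus markers, and by rank. Gfap varied together with Aqp4 (Pearson r = 0.72, Spearman rho = 0.70) and with Aldh1l1 (r = 0.71, rho = 0.72), and Aqp4 with Aldh1l1 (r = 0.65, rho = 0.63). The permutation p of these 3 pairs was 1e-05 for r and for rho, the smallest that 100000 permutations can give, and 5.6e-05 after adjustment over the 28 pairs. Without the 2 farthest libraries r was 0.72, 0.70 and 0.63. Within batch A it was 0.71, 0.73 and 0.67, and within batch B 0.78, 0.68 and 0.63.

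The genes of glutamate uptake formed another set. Slc1a2 and Slc1a3 had an r of 0.79 and a rho of 0.78, with 0.81 in batch A, 0.70 in batch B and 0.74 without the 2 farthest libraries (permutation p = 1e-05 for both, adjusted p = 5.6e-05). Glul, whose enzyme works on the glutamate that these transporters bring in, was correlated with Slc1a2 (r = 0.52, rho = 0.52, permutation p = 4e-05 and 6e-05, adjusted p = 0.00016 and 0.00024). Its r with Slc1a2 was 0.46 in batch A, 0.68 in batch B and 0.49 without the 2 farthest libraries. The sets were not linked by their main genes: Gfap and Slc1a2 had an r of -0.24 (rho = -0.23, permutation p = 0.0903 and 0.0963, adjusted p = 0.141 and 0.159; -0.31 in batch A, -0.05 in batch B and -0.16 without the 2 farthest libraries). Gfap and Glul were the pair with a negative correlation (r = -0.35, rho = -0.34, permutation p = 0.0114 and 0.0137, adjusted p = 0.0227 and 0.0255), at -0.39 in batch A, -0.30 in batch B and -0.32 without the 2 farthest libraries.

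Gja1 was correlated with each gene of the first set, with Gfap (r = 0.33, at 0.40 in batch A and 0.13 in batch B) and Aldh1l1 (r = 0.37, at 0.47 and 0.14) more weakly than with Aqp4, and of the second set only with Slc1a3. Its r with Slc1a2 was 0.25 (adjusted p = 0.171) and with Glul 0.28 (adjusted p = 0.072), which did not pass. It was correlated with Aqp4 (r = 0.69, rho = 0.63, permutation p = 1e-05 for both, adjusted p = 5.6e-05), although the r of 0.81 in batch A compared with 0.27 in batch B, and it was 0.63 without the 2 farthest libraries. With Slc1a3 it had an r of 0.55 (rho = 0.46, permutation p = 0.00052 and 0.00163, adjusted p = 0.00132 and 0.00456), at 0.51 in batch A, 0.68 in batch B and 0.46 without the 2 farthest libraries. With S100b it had an r of 0.53 (rho = 0.59, permutation p = 3e-05 and 2e-05, adjusted p = 0.00014 and 9.3e-05), at 0.47 in batch A, 0.69 in batch B and 0.60 without the 2 farthest libraries. S100b was also correlated with Gfap (r = 0.46, but 0.07 in batch B), Aqp4 (0.50) and Aldh1l1 (0.51), all past the threshold. Connexin 43 is found where astrocytes touch each other and at vessels, and the part of this in the correlations of Gja1 was not tested.

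**Figure D3:**
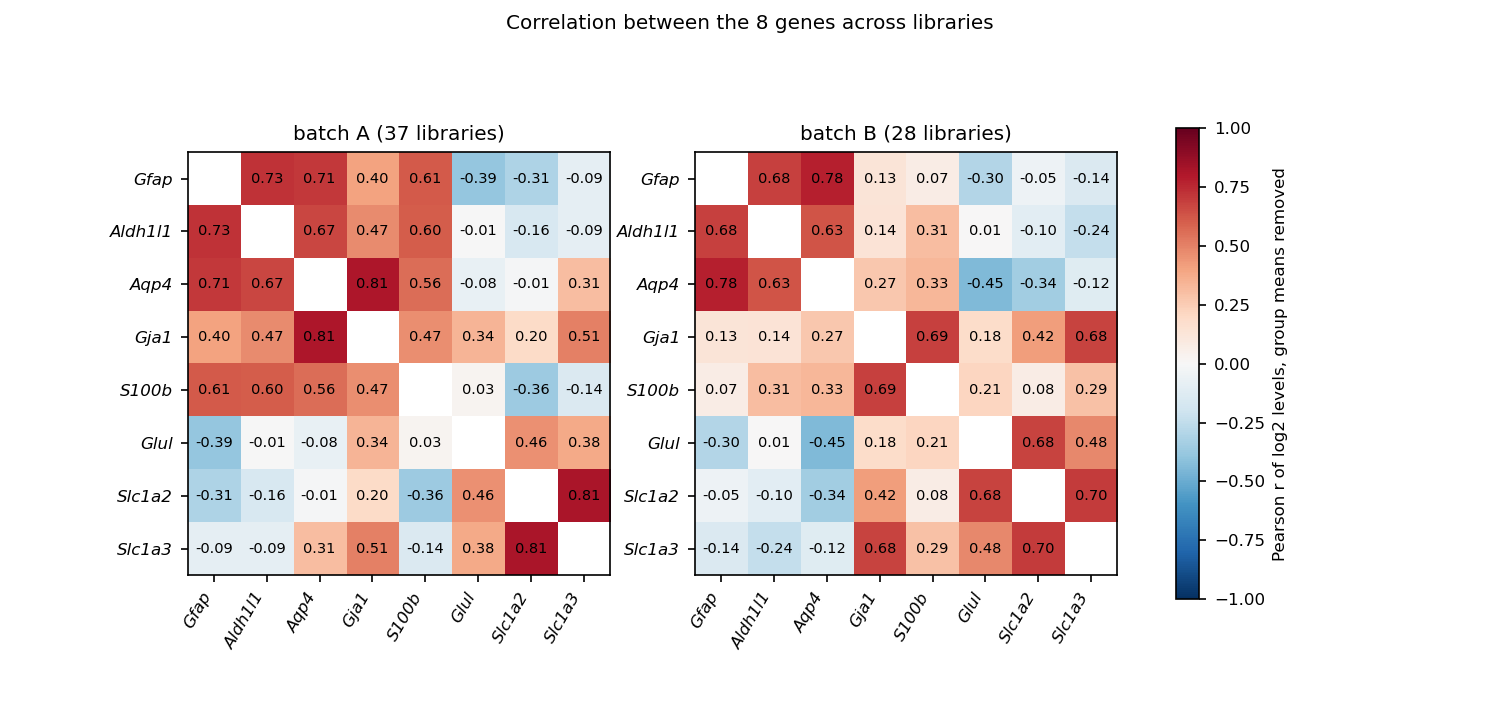
Pearson r between the log2 levels of each pair of the 8 genes, with the mean of each group in each batch removed, in batch A (37 libraries, left) and batch B (28 libraries, right), from -1 in blue to 1 in red. Red fields join Gfap, Aldh1l1 and Aqp4, and Slc1a2, Slc1a3 and Glul, in both batches, whereas the field of Gja1 with Aqp4 fades from 0.81 (left) to 0.27 (right).

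The sequences before the starts of genes that varied together are shown because members of both sets can be read side by side. All 8 genes had at least 1 window in the promoter table of RefSeq for the build GRCr8, with 13 windows of 300 bases, 250 before and 50 from the start on. Capitals mark the core site of nuclear factor I, TTGGC, the CCAAT box, CCAAT, and the GC box, GGGCGG, each searched on both strands, and a CCAAT box can overlap a core site.
Slc1a2 (first of 2 starts), chr3:109459859-109460158, plus strand: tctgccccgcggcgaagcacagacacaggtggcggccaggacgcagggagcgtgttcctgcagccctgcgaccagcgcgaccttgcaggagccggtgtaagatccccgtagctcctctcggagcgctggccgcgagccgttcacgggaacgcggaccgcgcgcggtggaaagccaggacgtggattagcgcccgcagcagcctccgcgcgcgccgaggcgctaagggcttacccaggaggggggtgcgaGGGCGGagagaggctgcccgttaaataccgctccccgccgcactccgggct
Slc1a2 (second of 2 starts), chr3:109507697-109507996, plus strand: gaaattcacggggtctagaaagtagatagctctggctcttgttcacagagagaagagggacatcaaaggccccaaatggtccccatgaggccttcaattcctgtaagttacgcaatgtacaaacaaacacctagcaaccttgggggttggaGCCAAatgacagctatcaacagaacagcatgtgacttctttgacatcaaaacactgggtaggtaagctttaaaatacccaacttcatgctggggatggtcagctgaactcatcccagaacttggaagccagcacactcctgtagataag
Slc1a3 (first of 3 starts), chr2:59557759-59558058, minus strand: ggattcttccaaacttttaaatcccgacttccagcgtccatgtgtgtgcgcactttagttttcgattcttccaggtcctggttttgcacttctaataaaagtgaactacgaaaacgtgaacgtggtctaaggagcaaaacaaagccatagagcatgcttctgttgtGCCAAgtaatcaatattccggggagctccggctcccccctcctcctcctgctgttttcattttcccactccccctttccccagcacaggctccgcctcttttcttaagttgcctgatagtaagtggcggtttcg
Aqp4 (first of 2 starts), chr18:6798793-6799092, minus strand: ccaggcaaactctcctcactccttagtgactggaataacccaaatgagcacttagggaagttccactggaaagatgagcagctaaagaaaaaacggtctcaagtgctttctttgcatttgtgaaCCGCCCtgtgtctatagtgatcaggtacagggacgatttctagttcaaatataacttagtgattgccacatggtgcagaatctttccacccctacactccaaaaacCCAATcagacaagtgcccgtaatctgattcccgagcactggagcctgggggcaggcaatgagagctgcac
Aqp4 (second of 2 starts), chr18:6797877-6798176, minus strand: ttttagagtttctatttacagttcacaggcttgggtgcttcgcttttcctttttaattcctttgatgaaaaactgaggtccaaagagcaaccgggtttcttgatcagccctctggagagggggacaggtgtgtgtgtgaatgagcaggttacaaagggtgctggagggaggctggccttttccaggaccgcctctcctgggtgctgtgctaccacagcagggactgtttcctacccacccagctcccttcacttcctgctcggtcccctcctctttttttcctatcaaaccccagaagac
Aldh1l1 (1 start), chr4:124616970-124617269, plus strand: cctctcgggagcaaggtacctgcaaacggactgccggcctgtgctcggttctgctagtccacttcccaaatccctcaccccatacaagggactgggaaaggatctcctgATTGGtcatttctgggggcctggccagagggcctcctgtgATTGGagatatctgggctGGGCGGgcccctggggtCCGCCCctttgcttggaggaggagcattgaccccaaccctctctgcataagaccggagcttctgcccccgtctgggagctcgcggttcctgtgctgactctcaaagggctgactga
Aldh1l1 is given on the plus strand in this build and on the minus strand in Rnor_6.0, to which the reads were mapped. The first window of Slc1a2 held 1 GC box and no core site, and the second held 1 core site TTGGC and no GC box. The window of Slc1a3 held 1 core site. The first window of Aqp4 held 1 CCAAT box and 1 GC box and the second held none of the 3 motifs, and Aldh1l1 held 2 CCAAT and 2 GC boxes. Over all windows, TTGGC was found for Slc1a2, Slc1a3, Glul and S100b, and for none of Gfap, Aqp4, Aldh1l1 and Gja1. Starts of the same gene differed in these motifs for Slc1a2, Aqp4 and Glul but not for Slc1a3, and TTGGC is a short and common run of letters. Of all 33469 windows of the table, 45.8% held TTGGC, 37.5% CCAAT and 33.1% GGGCGG. Of the 13 windows of the 8 genes, 6 held TTGGC, 6 CCAAT and 5 GGGCGG. Counted by gene, 4 of 8 held TTGGC, 5 CCAAT and 4 GGGCGG. A match is a description of letters, and the window of Gfap held none of the 3 motifs, which says only that these letters are not there.

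Genes outside the 8 that varied most like them were ranked by r over the 65 libraries, with group means removed, as a description. Closest to Gfap was Lcat (r = 0.89), which encodes a cholesterol-esterifying enzyme that astrocytes secrete in the brain, followed by Id3 (0.82) and Bace2 (0.81). Lcat was also closest to Aldh1l1 (0.82). Aqp4 was followed by Sept2 (0.82), the urea transporter gene Slc14a1 (0.81) and Glud1 (0.78), the gene of glutamate dehydrogenase. Slc1a2 had the closest neighbour of all, Sfxn5 (0.91), a mitochondrial carrier gene, and then Abhd2 (0.88) and Prex1 (0.88).

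Slc1a3 varied most like Plpp3 (0.85), Ntrk2 (0.74), whose truncated receptor form is made by astrocytes, and the microglial receptor gene Cx3cr1 (0.74). Gja1 was followed by Nadk2 (0.75), Glul by RGD1309821 (0.77) and S100b by Zfyve21 (0.83). Mlc1, which encodes a membrane protein of astrocyte endfeet, was closest to the mean of the 8 genes (0.76), ahead of Scd2 (0.74) and Abhd4 (0.72). Of the 31 genes named by this rank, over all members and the mean, 5 rose and 1 fell in RYGB compared with sham in the test described with the comparisons, where 13% of all genes were called. Among them were Sfxn5 (log2 fold change 0.68, adjusted p = 0.026), Abhd2 (0.99, adjusted p = 0.011) and Prex1 (0.44, adjusted p = 0.045), the 3 neighbours of Slc1a2, while Cst3 fell by 0.39 (adjusted p = 0.027). Without the libraries low in hypothalamus markers 4 rose and 1 fell, where 5.36% of all genes were called, and against saline 0 of the 31 were called, where edgeR called 1 of all genes, with 0.18 for Sfxn5, 0.13 for Abhd2 and 0.15 for Prex1. These fits were added after seeing the data. In each of the 7 other comparisons between groups, edgeR called 0 of the 31. Between the batches, 17 of the 31 were higher in batch B and 1 was lower, where 40.7% of all genes were called.

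The levels were also set against the mean log2 level of other gene lists, with group means removed, in 168 correlations with adjusted permutation p. Gfap varied with a list of reactive astrocyte genes (r = 0.70, rho = 0.73, permutation p = 1e-05 for both, adjusted p = 0.00028 and 0.00042; 0.72 in batch A, 0.68 in batch B, 0.68 without the 2 farthest libraries). It also varied with markers of the meninges (r = 0.62, rho = 0.60, permutation p = 1e-05 and 2e-05, adjusted p = 0.00028 and 0.00056; 0.70 in batch A, 0.42 in batch B, 0.60 without the 2 farthest libraries). Astrocytes under the brain's surface, next to the meninges, are known for high Gfap. The part of tissue next to the meninges in these relations was not tested. The summed level of the 9 meninges genes, of which the most abundant was Igf2 and 0 were absent from all libraries, ran from 68.9 to 3792 CPM.

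Slc1a2 was correlated negatively with 14 genes of cytosolic ribosomal proteins, which also follow RNA quality (r = -0.69, rho = -0.60, permutation p = 1e-05 and 3e-05, adjusted p = 0.00028 and 0.00056). The r was -0.80 in batch A, -0.28 in batch B and -0.60 without the 2 farthest libraries. S100b was correlated positively with the same list (r = 0.66, rho = 0.53, permutation p = 2e-05 and 7e-05, adjusted p = 0.00037 and 0.00078), at 0.64 in batch A, 0.76 in batch B and 0.51 without the 2 farthest libraries. The summed level of the list ran from 3092 to 7380 CPM, its most abundant gene was Rpl4, and its part in the spread of Slc1a2 and S100b was not tested. S100b was correlated as well with the oligodendrocyte list (r = 0.59, rho = 0.56, permutation p = 1e-05 and 3e-05, adjusted p = 0.00028 and 0.00056), at 0.63 in batch A, 0.54 in batch B and 0.55 without the 2 farthest libraries.

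The hypothalamus list varied with Aqp4 (r = 0.53, rho = 0.53, permutation p = 0.0001 and 6e-05, adjusted p = 0.00129 and 0.00078; 0.56 in batch A, 0.56 in batch B, 0.52 without the 2 farthest libraries) and against Slc1a2 (r = -0.47, rho = -0.47, permutation p = 0.00033 and 0.0002, adjusted p = 0.00308 and 0.00187; -0.34 in batch A, -0.75 in batch B, -0.45 without the 2 farthest libraries). The part of dissection in these levels was not tested. Slc1a2 also varied with 3 genes of oligodendrocyte precursors (r = 0.68, rho = 0.61, permutation p = 2e-05 for both, adjusted p = 0.00037 and 0.00056), at 0.66 in batch A, 0.73 in batch B and 0.62 without the 2 farthest libraries. Glul varied with neuron markers (r = 0.50, rho = 0.51, permutation p = 0.00011 and 8e-05, adjusted p = 0.00132 and 0.00084; 0.51 in batch A, 0.56 in batch B, 0.44 without the 2 farthest libraries). It varied against markers of the ependyma, the ciliated lining of the ventricles (r = -0.64, rho = -0.66, permutation p = 1e-05 for both, adjusted p = 0.00028 and 0.00042; -0.62 in batch A, -0.67 in batch B, -0.62 without the 2 farthest libraries).

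**Figure D4:**
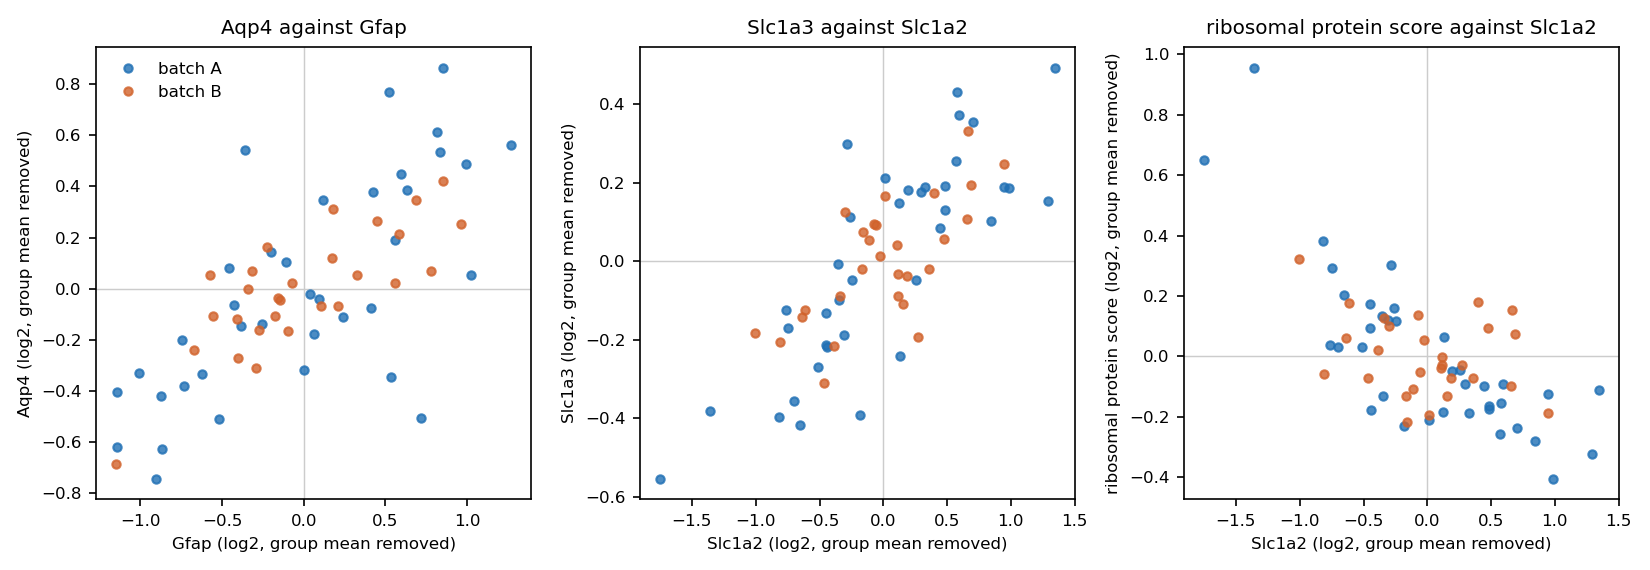
Log2 level of Aqp4 against Gfap (left), of Slc1a3 against Slc1a2 (middle) and the mean of 14 ribosomal protein genes against Slc1a2 (right), each point 1 of 65 libraries with the mean of its group in its batch removed, batch A in blue and batch B in orange. The points rise from left to right in the first pair (r = 0.72 and 0.79) and fall in the last (r = -0.69), where the spread of Slc1a2 is wider in batch A.

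Whether bypass surgery changed these genes was asked by comparing RYGB with sham animals. In batch A, Slc1a2 had 32.6, 22.2, 9.75, 13.2 and 11.7 RPKM in the 5 sham animals, and in 11 RYGB animals the lowest level was 9.76, the median 28.5 and the highest 47.1 RPKM. In batch B, the lowest, median and highest sham levels were 12.1, 14.8 and 25.6 RPKM, and the 3 RYGB animals had 30.4, 29.0 and 21.5 RPKM. The groups overlapped in both batches, while 10 of 11 and 3 of 3 RYGB animals lay above the sham median of their batch. In edgeR, with a term for the batch, the log2 fold change was 0.63 (SE 0.27, 95% interval 0.09 to 1.18, adjusted p = 0.105), so the threshold of 0.05 was not reached.

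Slc1a3, the other glutamate transporter, gave in batch A 149, 139, 102, 161 and 113 RPKM in sham, and in RYGB 119.6 as the lowest, 167 as the median and 202 as the highest. In batch B, sham ran from 149.6 over a median of 173 to 219 RPKM, and the RYGB animals had 221, 213 and 247 RPKM. Above the sham median were 7 of 11 and 3 of 3 RYGB animals, again with overlap in both batches. The log2 fold change was 0.25 (SE 0.10, interval 0.05 to 0.46, adjusted p = 0.088).

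Aldh1l1 gave in batch A 8.77, 10.4, 12.4, 10.1 and 10.9 RPKM in sham, and in RYGB 8.54 as the lowest, 13.5 as the median and 26.2 as the highest. In batch B, sham ran from 7.26 over a median of 10.7 to 20.8 RPKM, and the RYGB animals had 16.2, 16.8 and 16.0 RPKM. Above the sham median were 10 of 11 and 3 of 3 RYGB animals, and the groups overlapped. The log2 fold change was 0.43 (SE 0.18, interval 0.06 to 0.80, adjusted p = 0.103).

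The other 5 genes had log2 fold changes between -0.06 for S100b and 0.24 for Gfap. In all, 0 of the 8 genes passed an adjusted p under 0.05 in RYGB compared with sham, by edgeR and by DESeq2, where edgeR called 13% of all 21871 genes tested (6.52% higher and 6.53% lower in RYGB) and DESeq2 called 3358 genes. At an unadjusted p under 0.05 there were 3 of 8, all higher in RYGB, against 30% of all genes (13.9% higher). The median log2 fold change of the 8 was 0.22, and that of all genes was -0.02. The 95% intervals of the 8 genes reached from -0.34 to 1.18, and a p that misses the threshold does not show that there is no difference.

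Single libraries decided on which side of the threshold these 3 genes fell. Without sham replicate 1, Slc1a2 passed (0.78, adjusted p = 0.046). Slc1a3 did when RYGB replicate 11 was left out (0.28, adjusted p = 0.043), and Aldh1l1 when sham replicate 9 was (0.55, adjusted p = 0.034). The count of all genes called, RYGB vs sham, moved as well. It was 2853 with all libraries, 4938 when RYGB replicate 11 was left out, and 1701 for RYGB replicate 13, 1825 for sham replicate 4 and 1470 for sham replicate 5. Within batch B alone, where 2431 of all genes were called, 1 of the 8 genes passed, Slc1a3 (0.39, adjusted p = 0.031). Within batch A, where 529 were called, it had 0.27 (adjusted p = 0.316), and the difference of the effect between the batches was 0.12 (adjusted p = 0.904). Without the 12 libraries low in hypothalamus markers, 0 of the 8 genes passed, against 5.36% of all genes, with 0.80 for Slc1a2 (adjusted p = 0.080), 0.28 for Slc1a3 (0.121) and 0.39 for Aldh1l1 (0.247). In the ribosomal protein list, against which Slc1a2 varied, 2 of 14 genes were lower in RYGB than in sham. The median log2 fold change of the list was -0.25, and its part in the value of Slc1a2 was not tested. Sham was itself lower than the other control group, saline, for these 3 genes, though not past the threshold. The fitted differences were -0.31 for Slc1a2 (adjusted p = 0.694), -0.12 for Slc1a3 (0.693) and -0.33 for Aldh1l1 (0.498). With saline in place of sham as the control for RYGB, edgeR called 1 of all genes.

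Food restriction alone was examined by comparing BWM with sham, a comparison that shares its controls with those of RYGB and of lean animals. In batch A, Slc1a2 had a median of 19.8 RPKM in the 7 BWM animals, between 10.9 and 49.0, and Gfap had a median of 234, between 128 and 411 RPKM. The highest Slc1a2 level and the lowest Gfap level belonged to BWM replicate 1, which was low in hypothalamus markers. BWM replicate 5 had 76752 CPM of 7 pituitary genes, against a median of 5.79 CPM over all libraries, and had 12.3 RPKM of Slc1a2 and 140.5 RPKM of Gfap. By edgeR and by DESeq2, 0 of the 8 genes passed, where edgeR called 0.32% of all genes and DESeq2 called 231 genes, and 0 of 8 had an unadjusted p under 0.05, against 12.3%. The log2 fold changes ran from -0.16 for Aqp4 to 0.28 for Slc1a2, with -0.13 for Gfap. Within batch A alone, which holds all BWM animals, Aqp4 had -0.002, Slc1a2 0.35 and Gfap 0.29. Without the libraries low in hypothalamus markers, Slc1a2 had 0.10 (adjusted p = 0.933) and 0 of 8 passed, against 0.391% of all genes. Bypass was also compared with food restriction directly. The fitted differences ran from 0.00 for S100b to 0.37 for Gfap, and 0 of 8 passed by either tool, against 0.343% of all genes by edgeR and 60 genes by DESeq2. In the same comparison 5 of 5 striatum genes had an unadjusted p under 0.05, with a median of -1.55 and 0 called. The median was 1.675 for 4 cortex genes and -0.21 for the ribosomal protein list, with 0 of 14 genes above 0. Their part in the differences was not tested. In batch A, the batch that holds both groups, the RYGB median was under the BWM median for S100b (1021 against 1137 RPKM), Gja1 (122 against 124 RPKM) and Glul (551 against 556 RPKM). At an unadjusted p under 0.05 there was 1 of 8, against 12.6%. It was Slc1a3, with 0.25 (interval 0.01 to 0.48, adjusted p = 0.378), where the RYGB animals of batch A had a median of 167 RPKM and the BWM animals a median of 149.6, between 101 and 181 RPKM. Without the libraries low in hypothalamus markers, 0 of 8 passed, against 0.555% of all genes, and Slc1a2 went from 0.36 to 0.70 (interval 0.06 to 1.33, adjusted p = 0.250), while Slc1a3 had 0.27 (adjusted p = 0.264). The cause of the move was not tested.

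The lean animals had the widest spread of Slc1a2, with 8.18 RPKM as the lowest, 28.4 as the median and 74.5 as the highest, and 5 of 6 lay above the sham median of batch A. The fitted difference between lean and sham was 0.92 on the log2 scale (SE 0.34, interval 0.23 to 1.6, adjusted p = 0.289). The ribosomal protein list, against which Slc1a2 varied, had a median of -0.31 in the same comparison, with 14 of 14 genes below 0, 10 of 14 at an unadjusted p under 0.05 and 0 called, and its part in the value of Slc1a2 was not tested. The difference of Slc1a2 ran from 0.55 (adjusted p = 0.683) without lean replicate 3, the animal with the highest level, to 1.12 (adjusted p = 0.040) without lean replicate 6, the animal with the lowest, and was 1.26 (adjusted p = 0.294) without the libraries low in hypothalamus markers. Of all genes 0% were called by edgeR, and of the 8 genes 0 were called by edgeR and by DESeq2. Without lean replicate 6, the count over all genes was 1081, and without sham replicate 1 it was 300. At an unadjusted p under 0.05 there was 1 of 8, Slc1a2, against 12.2% of all genes.

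The effect of the gut hormone fragment was asked by comparing PYY3-36 with saline. In batch B, Aqp4 had 206.8, 216.6, 216.6 and 213 RPKM in the PYY3-36 animals and 127.8, 172.7, 201.7, 154.6 and 146.1 RPKM in the saline animals. Every PYY3-36 animal thus lay above every saline animal of its batch, by a small margin at the nearest pair, as it did for 2.53% of all genes, and for 1 of the 8. In the fit over all libraries, the log2 fold change of Aqp4 was 0.36 (SE 0.24, interval -0.12 to 0.84, adjusted p = 0.680). Gfap had 442, 718, 464 and 386 RPKM in the PYY3-36 animals and 239.7, 330.3, 473, 263 and 221 RPKM in saline of batch B. The groups overlapped, with 4 of 4 PYY3-36 animals above the saline median, and the fitted difference was 0.67 (interval -0.16 to 1.5, adjusted p = 0.670). The animal with 718 RPKM, PYY3-36 replicate 2, was low in hypothalamus markers. Without the low libraries Gfap had 0.27 (adjusted p = 0.969), less than Aldh1l1 (0.44) and Slc1a2 (0.41), Aqp4 had 0.26 (adjusted p = 0.956), and 0 of 8 genes and 0% of all genes passed. By edgeR and by DESeq2, 0 of 8 genes passed, where edgeR called 0% of all genes, and 0 of 8 had an unadjusted p under 0.05, against 7.54%.

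For liraglutide, Slc1a2 had 25.9, 15.0, 22.9, 32.5 and 23.5 RPKM in batch B, where saline had 31.4, 8.88, 15.2, 11.4 and 21.2 RPKM, with overlap. Liraglutide compared with saline gave 8 positive log2 fold changes between 0.03 for S100b and 0.28 for Slc1a2, all with an adjusted p of 1.0. By edgeR and by DESeq2, 0 of 8 passed, against 0% of all genes by edgeR, and 0 had an unadjusted p under 0.05, against 2.08%. When the low libraries were left out 0 passed as well, with -0.06 for Glul to 0.43 for Slc1a2. For PYY3-36 with liraglutide, the log2 fold changes compared with saline ran from -0.22 for Gfap to 0.37 for Slc1a2. Again 0 of 8 passed by either tool, against 0.00457% of all genes by edgeR and 19 genes by DESeq2, and 0 had an unadjusted p under 0.05, against 2.53%. Without the low libraries 0 of 8 passed, with -0.38 for Gfap to 0.51 for Slc1a2 (adjusted p = 0.933 for both). Within batch A alone Gfap had 0.10 and Slc1a2 0.12, and within batch B alone Gfap had -0.70 and Slc1a2 0.56.

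In this combination group the batches differed for Aldh1l1 as well. In batch B its 5 animals had 10.7, 8.94, 11.6, 11.2 and 10.7 RPKM, all under the saline animals with 12.7, 15.3, 16.9, 16.2 and 13.5 RPKM. In batch A they had 31.1, 18.7, 13.5, 19.7 and 9.34 RPKM, and the 3 saline animals had 14.8, 13.1 and 9.61 RPKM. Thus 0 of 5 animals were above the saline median in batch B and 4 of 5 were in batch A. Of all genes, 0.608% had every combination animal under every saline animal in batch B, and 1.56% did in batch A, where S100b was the 1 of the 8 that did, with 781 to 1107 against 1118 to 1232 RPKM. The effect in batch B minus that in batch A was -1.05 on the log2 scale (SE 0.40), with an adjusted p of 1.0, so the difference of the effects did not pass. Sham compared with saline, a comparison of both control groups, gave log2 fold changes from -0.33 for Aldh1l1 to 0.12 for Gja1. Of the 8 genes, 0 passed by either tool, against 0.0137% of all genes by edgeR and 26 genes by DESeq2, and 0 had an unadjusted p under 0.05, against 12.9%. Without the low libraries 0 of 8 passed, with -0.39 for Gfap to 0.07 for Gja1.

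**Figure D5:**
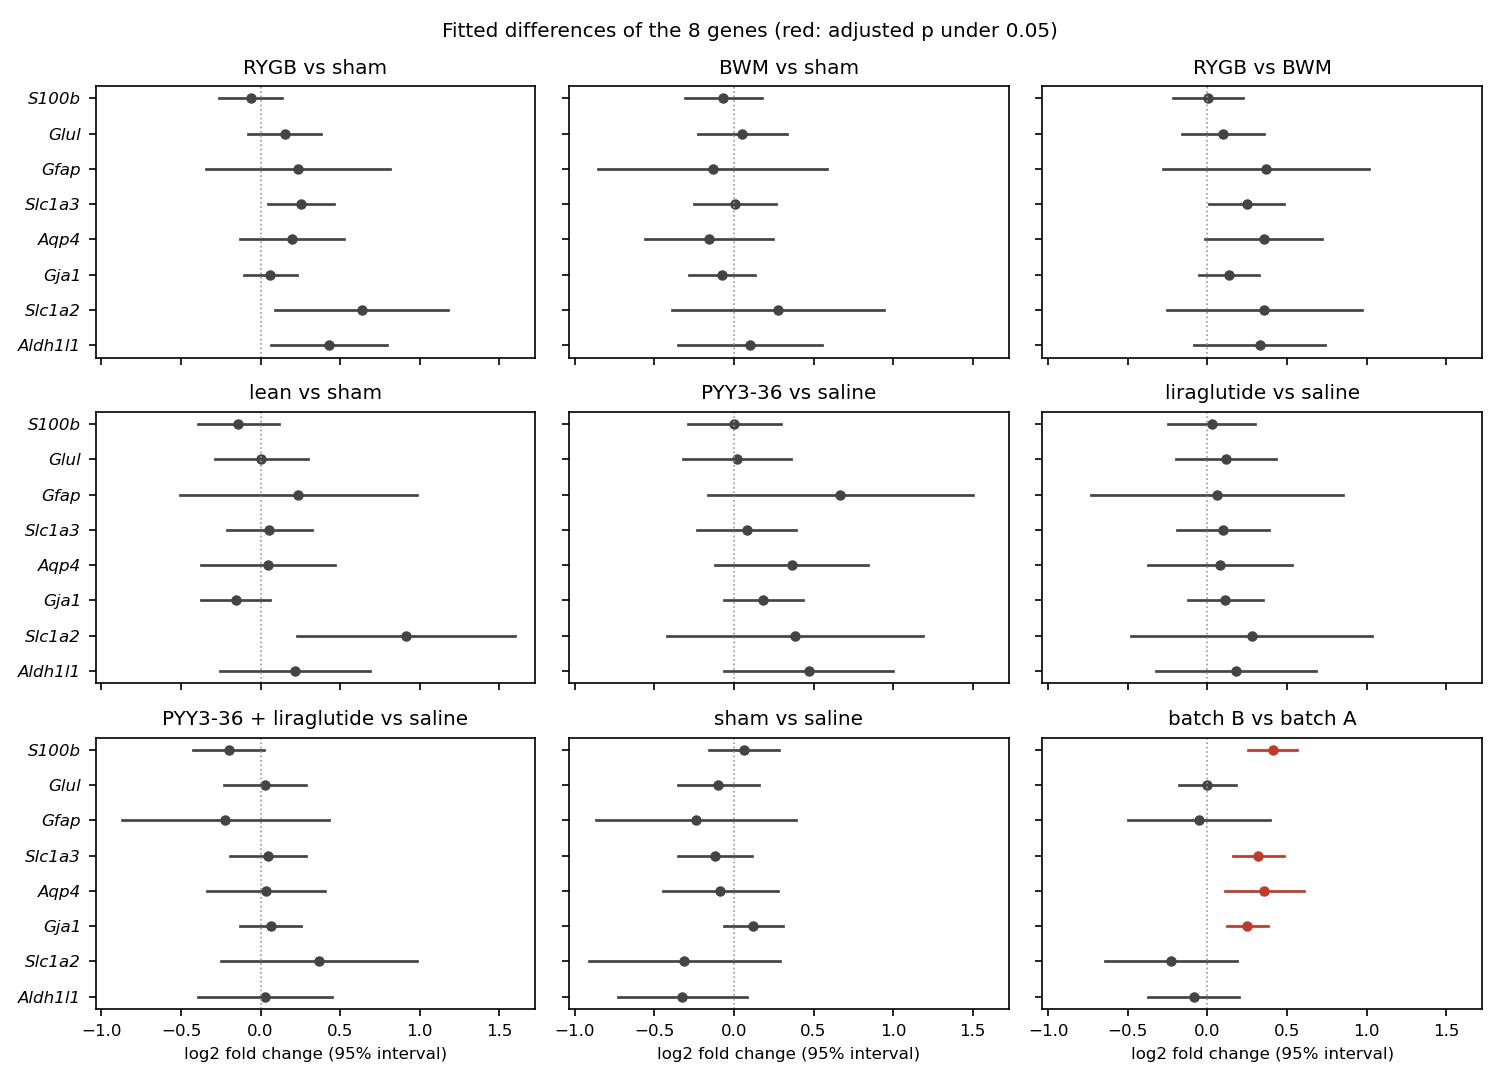
Log2 fold change of each of the 8 genes with its 95% interval in the 8 comparisons between groups and between the batches, from the edgeR fit over 65 libraries. Only the panel of the batches holds genes past an adjusted p of 0.05, in red, with S100b at 0.41, Aqp4 at 0.36, Slc1a3 at 0.32 and Gja1 at 0.25.

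Between the batches, 4 of the 8 genes passed the test, where 40.7% of all genes did, so a call here is common among genes of any kind. S100b had in batch A 1232, 1139 and 1118 RPKM in saline, and in batch B 1447, 1281, 1558, 1244 and 1649.7 RPKM. In the combination group it had 1107, 1049.6, 902, 1081 and 781 RPKM in batch A, and 1155, 1119, 1266, 1109 and 1662 RPKM in batch B. The RYGB animals of batch A had 893 as the lowest, 1021 as the median and 1806 as the highest, and those of batch B had 1490.4, 1526 and 1653 RPKM. In sham, the values of batch A were 778, 977, 1369.6, 1359 and 1251 RPKM, and batch B ran from 1298 over 1497 to 1933 RPKM. In the 4 groups present in both batches, 19 of 19 libraries of batch B lay above the batch A median of their group. With the groups as terms of the fit, S100b was 0.41 higher in batch B on the log2 scale (SE 0.08, interval 0.26 to 0.56, adjusted p = 1.4e-05). With the animals' numbers as a replicate block, S100b had 0.22 (adjusted p = 0.224), Gja1 0.15 (0.42), Aqp4 0.23 (0.528) and Slc1a3 0.33 (0.083), and 0 of the 8 genes passed. Within each shared group, however, the numbers run on from batch A to batch B. The block therefore overlaps with the batch and can take up part of its difference, so this fit cannot decide whether that difference holds.

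Slc1a3 showed the same order. In the combination group it had 157, 179, 172, 138 and 144 RPKM in batch A and 183, 191, 200.3, 193 and 164 RPKM in batch B, and in saline 151, 187 and 159.6 RPKM in batch A and 203, 148, 182, 138 and 193 RPKM in batch B. The saline animals overlapped, and 17 of 19 libraries of batch B in the 4 shared groups were above the batch A median. The log2 difference was 0.32 (SE 0.08, interval 0.16 to 0.48, adjusted p = 0.00087). Gja1, the gap junction gene, had 18 of 19 libraries above that median and a difference of 0.25 (SE 0.06, interval 0.12 to 0.38, adjusted p = 0.0014). Its group means in batch B were between 1.13 and 1.25 times those in batch A.

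Aqp4 was higher in batch B in 3 of the 4 shared groups. Its mean rose from 111 to 169 RPKM in sham, from 134 to 205 RPKM in RYGB and from 136 to 161 RPKM in saline, but it was 152 in batch A and 145 RPKM in batch B in the combination group. The log2 difference was 0.36 (SE 0.12, interval 0.11 to 0.61, adjusted p = 0.018). In all, 4 of 8 genes were higher in batch B and 0 lower, where 19.3% of all genes were higher and 21.4% lower. At an unadjusted p under 0.05 there were the same 4 of 8, against 47.7%. DESeq2 called 4 of the 8 as well. Without the 12 libraries low in hypothalamus markers, 4 of 8 passed with adjusted p between 4e-04 and 0.034, against 40% of all genes. Gfap (-0.05), Slc1a2 (-0.23), Aldh1l1 (-0.08) and Glul (0.00) did not pass. All 14 ribosomal protein genes were also higher in batch B, with a median of 0.32, and 8 of 14 were without the low libraries (median 0.30), and the batch medians of the counts per library were 29571483 and 23385849. Of the oligodendrocyte list, with which S100b varied, 5 of 8 genes were higher in batch B. The part of RNA quality, depth and oligodendrocytes in the difference between the batches was not tested.

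Further genes of astrocytes were followed as lists chosen by function. Of 26 further astrocyte genes, 4 rose in RYGB compared with sham and 0 fell, where 13% of all genes were called and 6.52% were higher. The median log2 fold change of the list was 0.15. In the same comparison 5 striatum genes had a median of -1.14, with 4 of 5 at an unadjusted p under 0.05 and 0 called, and all 14 ribosomal protein genes were below 0, with 9 of 14 at an unadjusted p under 0.05. Their part in the rises that follow was not tested. Kcnj10 encodes Kir4.1, the channel by which astrocytes take up potassium. Its levels in batch B were 12.4, 15.2 and 17.1 RPKM in RYGB and between 3.09 and 4.69 RPKM in sham, without overlap, as for 7.54% of all genes, and in batch A between 4.64 and 14.7 RPKM in RYGB and between 3.19 and 10.5 RPKM in sham, with overlap. The log2 fold change was 1.22 (adjusted p = 0.0019). Slc6a11 encodes the GABA transporter GAT-3 of astrocytes. Its levels in batch B were 87.7, 112 and 129 RPKM in RYGB and between 7.83 and 41.5 RPKM in sham, and in batch A between 11.5 and 114 RPKM in RYGB and between 7.65 and 55.0 RPKM in sham. The log2 fold change was 1.72 (adjusted p = 0.0026). Bmpr1b, a receptor of bone morphogenetic proteins, rose by 0.61 (adjusted p = 0.0050) and Gjb6, which encodes connexin 30, by 0.67 (adjusted p = 0.029).

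The same genes did not pass with the other control group. Compared with saline in place of sham, Kcnj10 was 0.39, Slc6a11 0.64, Bmpr1b 0.09 and Gjb6 0.42 higher in RYGB, each with an adjusted p of 0.9999, and edgeR then called 1 of all genes. Sham itself was lower than saline by a fitted -0.83 for Kcnj10 (adjusted p = 0.233) and -1.08 for Slc6a11 (adjusted p = 0.272), which did not pass. Without the libraries low in hypothalamus markers, Kcnj10 (1.22, adjusted p = 0.021), Slc6a11 (1.42, adjusted p = 0.024) and Bmpr1b (0.57, adjusted p = 0.035) passed and Gjb6 did not (0.54, adjusted p = 0.105). Gjb6 also missed the threshold in the fits that left out RYGB replicate 3 or sham replicate 2 or 5, with an adjusted p of at most 0.063. Within batch A alone, Kcnj10 had 0.96 (adjusted p = 0.133) and Slc6a11 1.38 (adjusted p = 0.121). Within batch B they had 1.85 (adjusted p = 0.0002) and 2.5 (adjusted p = 0.0021). Gjb6 went the other way, with 0.90 (adjusted p = 0.074) in batch A and 0.31 (adjusted p = 0.586) in batch B.

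Of 16 genes that handle glutamate and glutamine, 2 rose in RYGB compared with sham, against 6.52% of all genes. Slc1a4, a transporter of neutral amino acids that astrocytes use for serine, rose by 0.86 (adjusted p = 0.0040, and 0.033 without the libraries low in hypothalamus markers). Within batch A Slc1a4 had 0.62 (adjusted p = 0.200) and within batch B 1.32 (adjusted p = 0.0018). Slc38a2, a glutamine transporter, rose by 0.35 (adjusted p = 0.031), but missed the threshold without those libraries (0.32, adjusted p = 0.096) and, with an adjusted p of at most 0.077, without RYGB replicate 3 or 7 or sham replicate 2 or 4. Within batch A Slc38a2 had 0.48 (adjusted p = 0.097) and within batch B 0.07 (adjusted p = 0.783). Against saline, Slc1a4 was 0.20 and Slc38a2 0.27 higher, each with an adjusted p of 0.9999. The median of the list was 0.04.

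Among partners of endfeet and gap junctions, 3 genes rose in RYGB compared with sham. Besides Kcnj10 and Gjb6, which this list shares with the further astrocyte genes, Dag1 rose by 0.25 (adjusted p = 0.026). It encodes dystroglycan, which ties endfeet to the basal lamina of vessels. Dag1 missed the threshold without RYGB replicate 14 or sham replicate 5 (adjusted p of at most 0.063), and passed without the libraries low in hypothalamus markers (0.30, adjusted p = 0.045). It also missed with the animals' numbers as a replicate block (0.26, adjusted p = 0.076). Against saline, Dag1 was 0.15 higher, with an adjusted p of 0.9999.

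Reactive astrocytes answer injury and inflammation with a set of genes in which Gfap is the classic member. Of 18 other such genes, 1 rose in RYGB compared with sham, against 6.52% of all genes. It was Stat3, a transcription factor of the leptin and cytokine receptors (0.46, adjusted p = 0.031). The median of the 18 was 0.35, with 16 of 18 above 0, and the median of the list differed in sign between comparisons. It was 0.70 in BWM compared with sham (17 of 18 above 0, 5 with an unadjusted p under 0.05), 0.46 in PYY3-36 compared with saline (16 of 18) and 0.21 in lean compared with sham (16 of 18). It was -0.17 in RYGB compared with BWM (4 of 18) and, compared with saline, -0.13 in the combination group (5 of 18) and -0.07 in sham (5 of 18). Without the libraries low in hypothalamus markers these last 3 medians were -0.34, -0.30 and -0.17, that of RYGB compared with sham was 0.27 and that of BWM compared with sham 0.70. The meninges list, with which Gfap varied, had medians of 1.35 in RYGB, 1.89 in BWM and 1.01 in lean compared with sham and of 1.12 in PYY3-36 compared with saline, with 10 of 10 rows above 0 in each, and its part in these values was not tested. Stat3 was 0.35 (adjusted p = 0.144) without the libraries low in hypothalamus markers and 0.12 (adjusted p = 0.9999) against saline. It missed the threshold without RYGB replicate 9, 12, 13 or 14 or sham replicate 2, 4 or 5, with an adjusted p of at most 0.070. With the animals' numbers as a replicate block, Stat3 had 0.34 (adjusted p = 0.238). In each of the 7 other comparisons between groups, edgeR called 0 genes of these 4 lists. With sham as the control for the drugs, however, Bmpr1b, Slc6a11 and Kcnj10 were also higher in PYY3-36 and in the combination group, Slc1a4 in both and Dag1 in PYY3-36, where 1826 and 3220 of all genes were called, so these rises against sham were not particular to bypass. In the combination group Slc38a1 was higher and Cldn10 lower. Of the 14 ribosomal protein genes, 11 were lower there (median -0.405) and 1 was lower in PYY3-36 (median -0.35). Their part in these rises was not tested. In the fit that left out the libraries low in hypothalamus markers, Slc1a5 was higher in BWM than in sham, and Slc1a5 and Slc38a5 were lower in RYGB than in BWM. The largest of the differences that did not pass was that of Serpina3n, -3.71 in the combination group compared with saline (adjusted p = 0.9998), a gene that reached at most 1.83 RPKM in any library.

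Between the batches, 10 of the 26 further astrocyte genes were higher in batch B and 2 lower, where 19.3% and 21.4% of all genes were. Those with the smallest adjusted p were Mlc1 (0.38, adjusted p = 1.4e-06), Cldn10 (0.40, adjusted p = 6.7e-05), S1pr1 (0.46, adjusted p = 8.8e-05) and Ttyh1 (0.29, adjusted p = 0.0011). Of the reactive genes, 0 were higher and 2 lower, Aspg with -1.22 (adjusted p = 0.0083) and Socs3 with -0.64 (adjusted p = 0.028). Of the glutamate genes, the mitochondrial enzymes Got2 (0.32) and Glud1 (0.30) were higher, and the neuronal transporter Slc1a1 was lower (-0.52). Without the low libraries 11 were higher and 1 lower in the first of these lists and 0 and 3 in the second. The endfoot partners had 3 higher and 2 lower genes, and 2 and 1 without the low libraries, among them Gpr37l1 with 0.30 (adjusted p = 5.7e-05) and Trpv4 with -0.74 (adjusted p = 0.021).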

How the data were processed

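Poly-A RNA of 65 rat hypothalami, 1 library each, was sequenced by the authors. They trimmed the reads with cutadapt, mapped them with STAR 2.7.2b to Rnor_6.0 and counted exons per gene with featureCounts 1.6.4, with fractions for shared reads. The deposited values are thus estimated counts, of which 30.3% of the nonzero ones were not whole (tolerance 1e-06), and they were rounded to whole numbers. Groups and batches came from the labels.

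Tests used edgeR 4.0.16 in R 4.3.3: TMM scaling, filterByExpr with a minimum count of 10 and total of 15, a robust quasi-likelihood fit with group and batch, two-sided, and Benjamini-Hochberg adjustment over all genes. DESeq2 1.42.0 and fits without each library in turn were alternatives. RPKM used TMM-scaled CPM and exon lengths. Correlations used log2 of CPM plus 1, with permutations within group and batch in numpy 2.4.6. Named genes were the 8 members, the 3 genes most like each and 10 most like their mean, and per list at most 4 called genes or the largest difference. Members and lists were chosen with earlier results of these data known.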

Additional observations from a re-analysis of the deposited data

Results flagged for a closer look

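In each group of 4 to 10 animals of 1 batch, the highest and the lowest level of every gene were compared with the rest by Dixon's ratio, in 72 tests over 9 sets of animals, of which chance marks about 1 in 20. There were 3 levels that stood apart. Aldh1l1 was 20.9 RPKM in BWM replicate 4 of batch A, the highest of 7, where the others ran from 8.55 to 13.8 RPKM. Glul was 450.2 RPKM in PYY3-36 replicate 1 of batch B, the lowest of 4, where the others ran from 553 to 564 RPKM. S100b was 1662 RPKM in replicate 10 of the PYY3-36 + liraglutide group of batch B, the highest of 5, where the others ran from 1109 to 1266 RPKM.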

How the results depend on the processing

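In bulk tissue the share of astrocytes and the RNA per astrocyte were not separated. Batch and group overlap only in part, since BWM and lean were in 1 batch and PYY3-36 and liraglutide in the other, and their comparisons with controls rest on the batch term. Groups of 4 to 7 animals left wide intervals, up to 0.83 on either side on the log2 scale. The dissection was not recorded in the labels, and the libraries low in hypothalamus markers fell on 3 of 11 sham and 0 of 14 RYGB animals. RNA levels do not give protein levels.

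In 1664 tests of the 8 genes under alternatives, over the 8 comparisons between groups, 9 passed and 115 had the other sign. Requiring a log2 fold change over 1 as well left 518 genes in RYGB vs sham and 1094 in all genes called, batch B vs batch A, and 0 of the 8 genes between the batches, whose differences were all under 1. Without the batch term, the counts were 5587 in RYGB vs sham (2 of the 8 genes, Slc1a2 and Aldh1l1), 2183 in BWM vs sham, 2339 in lean vs sham (1 of the 8, Slc1a2), 2 in PYY3-36 + liraglutide vs saline and 5 in sham vs saline. Within batch A alone they were 529 in RYGB vs sham, 346 in BWM vs sham, 13 in RYGB vs BWM, and 0 in PYY3-36 + liraglutide vs saline and in sham vs saline. Within batch B alone they were 2431 in RYGB vs sham, 1 in liraglutide vs saline and 0 in PYY3-36 + liraglutide vs saline, and 1 of the 8 genes, Slc1a3, passed in RYGB vs sham. Against the other control group, they were 1 for RYGB, 9 for BWM, 1826 for PYY3-36 (1 of the 8, Aldh1l1 with 0.79, adjusted p = 0.040), 21 for liraglutide and 3220 for PYY3-36 + liraglutide. Without the libraries low in hypothalamus markers, an alternative chosen after seeing the data, they were 1177 in RYGB vs sham and 122 in RYGB vs BWM. DESeq2 gave 231 in BWM vs sham, 5 in lean vs sham, 12 for PYY3-36, 14 for liraglutide and 19 for PYY3-36 + liraglutide against saline, and 26 in sham vs saline. Except for the fold threshold, the cause was not tested.

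With the animals' numbers as a replicate block, the counts were 1618 in RYGB vs sham, 1 in BWM vs sham, 0 in RYGB vs BWM, 0 in PYY3-36 + liraglutide vs saline, 0 in sham vs saline and 3077 between the batches, where 0 of the 8 genes passed (S100b 0.22, adjusted p = 0.224; Slc1a3 0.33, 0.083; Gja1 0.15, 0.42; Aqp4 0.23, 0.528). Among 37 pairs of animals with the same number, 14 had an r over 0.1. Since the numbers run on from batch A to batch B within a group, the block overlaps with the batch. The fit with the block therefore cannot decide on the difference between the batches.

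Leaving out 1 library at a time gave 1470 to 4938 genes in RYGB vs sham, with 0 to 1 of the 8, 5 to 408 in BWM vs sham, 2 to 166 in RYGB vs BWM, 0 to 1081 in lean vs sham, with 0 to 1 of the 8, 0 to 2 for PYY3-36, 0 to 0 for liraglutide and 0 to 1 for PYY3-36 + liraglutide against saline, 1 to 186 in sham vs saline, and 8299 to 9596 between the batches, with 4 to 4 of the 8. Counts moved over 1.5 times in these fits, besides those named in the text. All genes called, BWM vs sham: 408, 180, 5 and 41 without BWM replicate 1, 2, 5 and 7, and 23, 23, 44, 23, 43 and 140 without sham replicate 2, 3, 4, 5, 8 and 11. All genes called, RYGB vs BWM: 115, 166 and 2 without BWM replicate 1, 4 and 5, and 134, 45, 42, 49, 48, 124, 44, 44 and 48 without RYGB replicate 3, 4, 5, 7, 9, 11, 12, 13 and 14. All genes called, PYY3-36 vs saline: 2 without PYY3-36 replicate 1. All genes called, PYY3-36 + liraglutide vs saline: 0 without saline replicate 7. All genes called, sham vs saline: 5, 6 and 5 without saline replicate 1, 6 and 8, 186 without sham replicate 1, and 1 without sham replicate 8, 9, 10 or 11. A level per length of the longest transcript was not run, since no transcript annotation of Rnor_6.0 was given. Aldh1l1 and Slc1a2 had the lowest counts, with medians of 1001 and 1088 per library.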

Other observations

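Other cell types were followed by marker lists in RYGB compared with sham and between the batches. Of all genes, 13% were called in RYGB compared with sham, 6.52% of them higher and 6.53% lower, as shares of all genes. In RYGB compared with sham, edgeR called 0 of 8 neuron genes (median log2 fold change -0.20), 0 of 8 oligodendrocyte genes (-0.29), 0 of 3 genes of oligodendrocyte precursors (0.41), 1 of 8 microglia genes (-0.07) and 1 of 6 endothelium genes tested (0.23). It called 0 of 8 tanycyte genes (0.54), 0 of 6 ependyma genes (-0.53), 1 of 7 choroid plexus genes (1.28), 0 of 10 meninges rows (1.35), 0 of 7 pituitary genes (0.05) and 0 of 4 blood genes (0.66). The called genes of microglia, endothelium and choroid plexus were each higher in RYGB. For the regions, 0 of 10 hypothalamus genes (0.22), 0 of 5 thalamus genes (-0.60), 0 of 5 striatum genes (-1.14) and 0 of 4 cortex genes (-0.26) were called. At an unadjusted p under 0.05, the striatum list had 4 of 5 genes, all lower in RYGB.

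Between the batches, 5 of 8 oligodendrocyte genes, 1 of 8 neuron genes, 3 of 8 microglia genes, 4 of 6 endothelium genes and 3 of 4 blood genes were higher in batch B, as was 1 of 5 striatum genes, where 19.3% of all genes were. Lower were 2 of 7 pituitary genes, 1 of 8 tanycyte genes and 1 of 10 hypothalamus genes, where 21.4% of all genes were. Cnp, which encodes a protein of myelin, was 0.57 higher. In BWM compared with sham, 5 of 7 pituitary genes were higher, where 0.32% of all genes were called, and in RYGB compared with BWM 5 of 7 were lower, where 0.343% were, and BWM replicate 5 had 62724 CPM of Gh1 and 76752 CPM of the pituitary list.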
